A study of Mus musculus with 4 samples.

Results

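The cells described here are the clonal myeloma cells of 5TMM bone marrow, 166 of the 39743 cells that passed the filter in 4 single-cell libraries. They were selected on raw UMI counts (unique molecular identifiers, 1 per captured transcript), as cells with at least 3 Rhox5, at least 30 Ighg2b and fewer than 100 Igha UMIs, among cells in which 300 or more genes were detected and no more than 20% of the UMIs were mitochondrial. All 4 mice were C57BL/KawRij mice that received 5TGM1-luc cells, a luciferase-tagged mouse myeloma line, into a vein at an age of 6 weeks. After 3 weeks, 2 mice were given vehicle and 2 were given 10 mg/kg purinostat mesylate (PM), an inhibitor of class I and IIb histone deacetylases, and 24 h later marrow freed of red cells was sequenced, with 1 library per mouse. The host keeps its own immune system, so the marrow holds plasma cells of both the graft and the host. The files cover 69828595 to 109447030 UMIs per mouse. The comparator throughout was the 228 other plasma cells of the same mice, which had at most 1 Rhox5 UMI, at least 100 heavy-chain constant UMIs, at least 10% immunoglobulin UMIs and at least 2 of the plasma cell transcripts Jchain, Mzb1, Xbp1, Sdc1 and Prdm1.

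Multiple myeloma is a cancer of plasma cells, the antibody factories of the immune system. A clone that descends from a single plasma cell shares the rearranged V segments of its heavy and light chains, so that these transcripts act as a tag of descent. Plasma cells rest in the cell cycle, carry a large endoplasmic reticulum and devote much of their transcription to immunoglobulin, and myeloma lines are known for MYC activity and for growth. Rhox5 is a homeobox gene of the reproductive tract that is switched on in many mouse tumor lines. Metallothioneins bind zinc and copper, and their promoters answer to the zinc-sensing factor MTF1 through short metal response elements.

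The light-chain and heavy-chain V segments of the clone are shown because they identify it. Igkv10-96 (GRCm38, chr6:68631963-68632442, minus strand) was the leading light-chain V gene in 158 of the 161 clonal cells with such a UMI. Ighv1-54 (chr12:115193675-115194134, minus strand) led the heavy-chain V genes in 134 of 142. The last 120 bases of each germline transcript follow, 5′ to 3′, with the codon of the conserved cysteine before the junction in capitals. They are reference sequences and carry none of the clone's own mutations.
Igkv10-96: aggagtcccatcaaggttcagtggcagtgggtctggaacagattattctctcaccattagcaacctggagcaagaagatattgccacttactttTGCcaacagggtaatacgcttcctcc
Ighv1-54: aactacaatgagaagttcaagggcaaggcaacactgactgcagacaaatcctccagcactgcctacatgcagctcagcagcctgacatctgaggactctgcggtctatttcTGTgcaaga

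The promoters of 3 neighboring metallothionein genes are shown because Mt1 and Mt2 were high in the clone in all 4 libraries and Mt3 changed with PM. Each window holds 250 bases before and 50 after the annotated start, from RefSeq on GRCm38.p6, plus strand. Capitals mark the cores TGCACNC and TGCGCNC of the metal response element, searched on both strands, where a minus-strand match appears as its reverse complement. The Mt1 window (chr8:94178839-94179138) holds 3 matches, the Mt2 window (chr8:94172368-94172667) holds 4 and the Mt3 window (chr8:94152357-94152656) holds 1. Of 32851 promoter windows of this length, 25.7% hold 1 or more, 1.97% hold 3 or more and 0.517% hold 4 or more. A match describes these letters and is not a measured binding site.
Mt1: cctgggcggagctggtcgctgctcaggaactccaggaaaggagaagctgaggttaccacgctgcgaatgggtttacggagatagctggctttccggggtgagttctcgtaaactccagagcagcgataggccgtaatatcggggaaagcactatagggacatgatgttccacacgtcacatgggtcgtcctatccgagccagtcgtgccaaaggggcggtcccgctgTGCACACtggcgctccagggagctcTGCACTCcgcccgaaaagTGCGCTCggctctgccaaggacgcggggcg
Mt2: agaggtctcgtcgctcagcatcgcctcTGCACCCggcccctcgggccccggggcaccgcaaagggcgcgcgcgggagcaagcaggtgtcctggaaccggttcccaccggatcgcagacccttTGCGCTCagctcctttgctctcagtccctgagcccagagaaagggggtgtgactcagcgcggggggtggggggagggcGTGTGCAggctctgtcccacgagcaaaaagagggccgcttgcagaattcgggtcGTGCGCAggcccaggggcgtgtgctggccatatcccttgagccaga
Mt3: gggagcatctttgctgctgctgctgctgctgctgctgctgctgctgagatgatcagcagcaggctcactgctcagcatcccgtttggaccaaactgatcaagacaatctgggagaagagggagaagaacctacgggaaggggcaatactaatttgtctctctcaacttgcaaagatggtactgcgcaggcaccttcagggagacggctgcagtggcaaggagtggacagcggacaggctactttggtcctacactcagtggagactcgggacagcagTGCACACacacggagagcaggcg

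Vehicle replicates 1 and 2 gave 21 and 27 clonal cells, and PM replicates 1 and 2 gave 91 and 27. Their Rhox5 counts ran from 3 over a median of 21 to 142 UMIs, and their Ighg2b counts from 60 over 553 to 2306, while Igha reached at most 23 UMIs. The thresholds cut through a nearly empty range. With the other limits met, 55 cells had no Rhox5 UMI, 1 cell had 1, 1 had 2, 1 had 3 and 3 had 4, and 143 had more than 10. The cell just outside, of PM replicate 1, had 2 Rhox5 and 119 Ighg2b UMIs, and the cell just inside, of the same library, had 3 Rhox5 and 83 Ighg2b UMIs but only 2838 UMIs in all. A further cell of PM replicate 2 failed on Ighg2b, with 4 Rhox5 and 3 Ighg2b UMIs, and no cell failed on Igha alone. These values chose the cells and are given as a description.

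**Figure D1:**
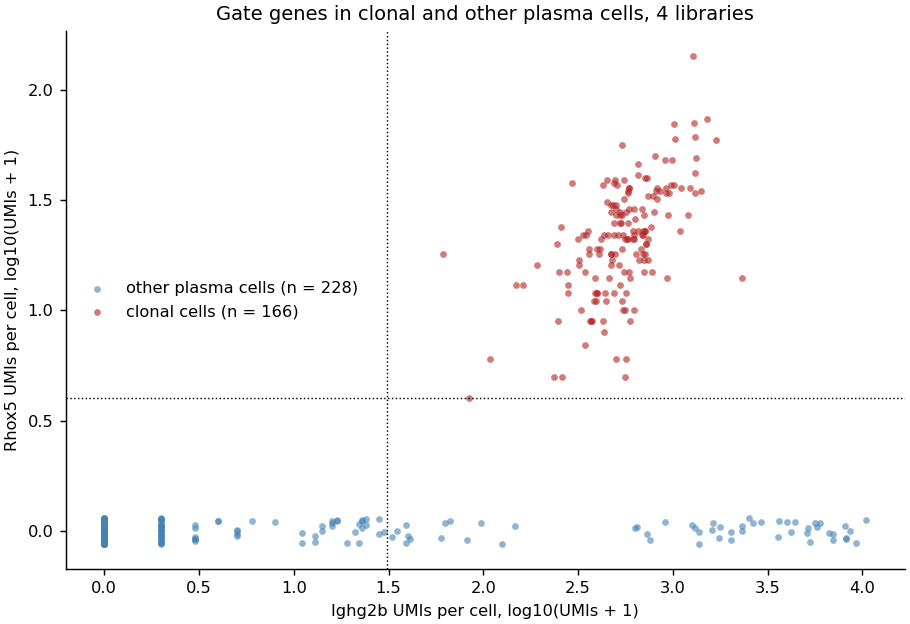
Rhox5 (vertical axis) against Ighg2b (horizontal axis) in UMIs per cell, both as log10(UMIs + 1), for the 166 clonal cells (red) and the 228 other plasma cells (blue, with a small vertical jitter) of all 4 libraries. Dotted lines mark 3 Rhox5 and 30 Ighg2b UMIs, and 143 of the clonal cells lie above 10 Rhox5 UMIs.

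PM replicate 1 stood apart from the other libraries. It held 91 of the 166 clonal cells, and in 14 of them more than 1% of the UMIs came from 10 neutrophil transcripts, against 0, 1 and 1 cells in vehicle replicates 1 and 2 and PM replicate 2. The summed level of these 10 transcripts in clonal cells was 1249 and 4023 CPM (UMIs of a gene scaled to an equal total in every library, 1e6) with vehicle, and 15013 and 1648 CPM with PM, led by S100a9, and all 10 had UMIs. The 8 monocyte and macrophage markers summed to 115 and 201 CPM with vehicle and 870 and 223 CPM with PM, with Lyz2 most abundant. In clonal cells, T/NK, stromal and megakaryocyte markers summed to at most 17.3 CPM in any library, and erythroid markers to at most 92.3 CPM. Among the other plasma cells, 6 and 3 with vehicle and 19 and 3 with PM were over 1% neutrophil UMIs. Their neutrophil transcripts summed to 13958 and 6402 CPM with vehicle and 31682.5 and 5894 CPM with PM, above the clone in each library. Their monocyte and macrophage markers summed to 581 to 2859 CPM. The barcodes shared between any 2 libraries numbered 18 to 41, and none of them was a clonal cell. Where given, changes without PM replicate 1, or without cells over 1% neutrophil UMIs, stand beside the results.

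The clonal cells were large in RNA terms and poor in immunoglobulin. Their median depth was 29625, 40933, 34350 and 34882 UMIs in vehicle replicates 1 and 2 and PM replicates 1 and 2, against 22471, 19441, 14895 and 16860 in the other plasma cells. Immunoglobulin genes took 5.03%, 4.03%, 4.93% and 4.76% of their summed UMIs in vehicle replicates 1 and 2 and PM replicates 1 and 2, and 49.0% to 56.3% of those of the other plasma cells. Mitochondrially encoded transcripts took a median of 6.55% to 7.14% per cell, against 2.23% to 2.77%. None of these ranges overlapped between the classes, but the comparator was chosen to hold at least 10% immunoglobulin UMIs, so that part of the immunoglobulin gap restates the choice.

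Against the label, the marker genes were met in part. Sdc1, the plasma cell surface proteoglycan syndecan-1 (CD138), stood at 304 to 460 CPM in the clone and 221 to 274 CPM in the other plasma cells, and Epcam, an epithelial adhesion molecule, at 168 to 264 against 40.05 to 91.7 CPM. On CPM, however, the median of 5140 genes was itself 1.23 to 1.57 higher in the clone on the log2 scale. Relative to that median gene, Sdc1 was lower in the clone in all 4 libraries, and Epcam was lower in vehicle replicate 1. Ighg2b, though used in the selection, was lower in the clone than in the other plasma cells, at 12508 to 17777 against 26570 to 46249 CPM. Irf4 and Xbp1, which drive plasma cell identity, were present at 203 to 349 and 718 to 1177 CPM. Jchain, which joins antibody units into polymers, was at 105, 205, 2441 and 1157 CPM in vehicle replicates 1 and 2 and PM replicates 1 and 2, far under the 43864 to 67241 CPM of the other plasma cells. The surface receptor BCMA, Tnfrsf17, had 0 to 1.82 CPM in the clone and 68.0 to 117 CPM in the others, and Cd38 had at most 0.303 CPM against 15.9 to 33.5 CPM; these 2 genes were picked out after their values were seen. Of the 8 B cell markers, only Cd79b was above 20 CPM in the clone.

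The V gene pair named above led in most of the clonal cells, while the comparator was mixed. Across the other plasma cells the leading V gene was 1 of 54 for the light chain and 1 of 62 for the heavy chain. The tag genes were not absent there: Igkv10-96 led in 11 of these cells, and Ighv1-54 stood at 38.7, 51.5, 0 and 3.83 CPM in vehicle replicates 1 and 2 and PM replicates 1 and 2. Their constant genes differed as well, and Igha was the most abundant constant gene in 146 of 228. Among sex-linked transcripts, a Y-chromosome gene parted the classes, while the ranges of Xist overlapped. Ddx3y, a Y-chromosome gene, was at 0, 0, 6.36 and 3.49 CPM in the clonal cells of vehicle replicates 1 and 2 and PM replicates 1 and 2, and at 66.2, 46.8, 52.9 and 33.5 CPM in the other plasma cells. Xist, the RNA of the inactive X chromosome, was at 6.20, 2.43, 47.8 and 8.74 CPM in the clone and at most 4.07 CPM in the other plasma cells. In PM replicate 1, 48 of 91 clonal cells had a Xist UMI, against 4 of 27 in PM replicate 2 and 2 of 21 and 3 of 27 with vehicle. After thinning to 5000 UMIs the PM replicate 1 share was 21.1%, while 0 of 7907 neutrophils with a Cxcr2 UMI held one.

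Because the clonal cells were defined by their transcripts, their contrast with the other plasma cells is a description without a test. Mt1 and Mt2, which code for the metallothioneins, ran at 3242 to 4381 and 2618 to 3430 CPM against 87.6 to 522 and 72.3 to 252 CPM, and neither range overlapped. Afp, the fetal serum protein alpha-fetoprotein, was at 222, 262, 287 and 319 CPM in vehicle replicates 1 and 2 and PM replicates 1 and 2, with no UMI in the other plasma cells, which makes it at least 407-fold higher at a limit of 3 UMIs over that class. Cp, the copper-carrying ferroxidase ceruloplasmin, was likewise absent from the comparator and at least 375-fold higher. By the fixed rule for named genes the next were Mfge8, a secreted protein that bridges dying cells to phagocytes (127-fold in the pooled cells), Xlr, the ETS transcription factor Etv1, the glycolytic enzyme Pgam2 (117-fold), Hist3h2ba, the nucleoside transporter Slc29a1 (61.8-fold), Il5ra, the receptor chain for interleukin-5 (97.4-fold), and 3830403N18Rik. Fyn, a Src family kinase, followed at 490 to 694 CPM (36.6-fold), with Phlda1, Blvrb, Spata6, Nbea, 1110038B12Rik, the kinase gene Map3k8, Gsto1, Dctpp1 and Mt2. Each of these 20 had a UMI in 144 to 166 of the 166 clonal cells.

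The 15 named transcripts that were lower in the clone included 4 of antibody secretion (Derl3, Herpud1, Mzb1 and Jchain) and 4 immediate early transcription factors. Mzb1 and Jchain were among the 5 transcripts that chose the comparator. Derl3 and Herpud1, which act in the removal of misfolded proteins from the endoplasmic reticulum, stood at 0.605 to 1.62 and 35.8 to 64.8 CPM against 200 to 273 and 632 to 744 CPM. Mzb1, a chaperone of antibody assembly, was at 10.9 to 114 against 876 to 1479 CPM. Cd79a, the signaling chain of the B cell receptor, was at 0 to 6.11 against 422 to 503 CPM, and Prg2, an eosinophil granule protein, had 2 UMIs in all 166 cells. Fos, Fosb, Jun and Egr1, the immediate early genes, were 44.8-fold, 25.7-fold, 19.4-fold and 24.9-fold higher in the pooled other plasma cells. Ly6a (Sca-1), Glipr1, Fndc3a, Pqlc3 and the activation marker Cd69 completed the list. All 10 measured genes of a list for stress from cell handling lay below the median gene in all libraries, on the scale described below (8 were lower in all libraries on CPM), and the part of handling was not tested.

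**Figure D2:**
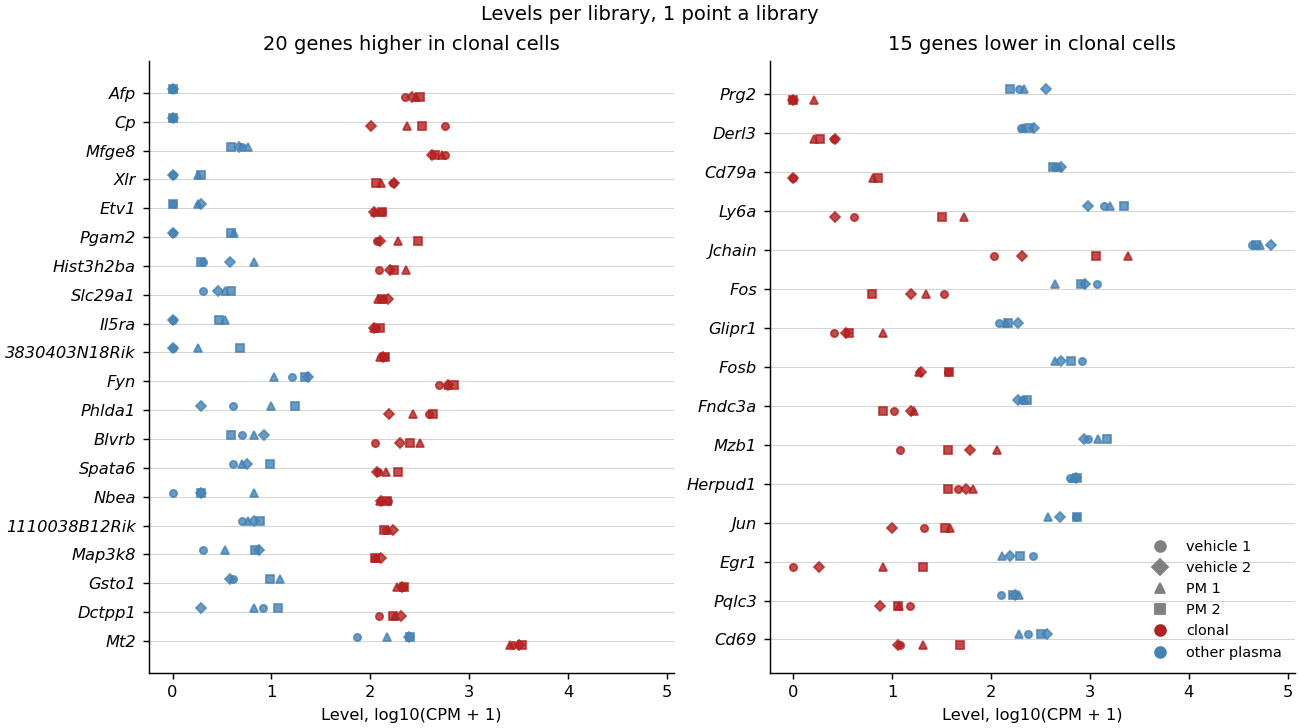
Level of each named gene as log10(CPM + 1) on the horizontal axis, 1 point per library, in clonal cells (red) and other plasma cells (blue); marker shapes give the library. All 20 genes on the left lie higher in the clone in each library, Afp and Cp with 0 CPM in the comparator, and all 15 on the right lie lower.

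How many genes parted the classes depended on the scale. On CPM over all UMIs, 780 of the 5140 genes whose mean reached 20 CPM (15.2%) were at least 4-fold higher in the clone in all 4 libraries and 73 (1.42%) at least 4-fold lower. Immunoglobulin fills about as many UMIs as all other genes together in the other plasma cells, and the median gene was 1.23 to 1.57 higher in the clone on the log2 scale. Relative to that median gene, 89 genes (1.73%) were higher and 201 (3.91%) lower. The gene groups that follow are given relative to the median gene, for which 1736 of 5140 genes lay above and 1753 below in all 4 libraries.

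MYC and its targets were high in the clone on both scales. Myc itself ran at 180, 134, 121 and 219 CPM in vehicle replicates 1 and 2 and PM replicates 1 and 2, against 5.75 to 23.4 CPM, and 32 of 34 measured MYC targets lay above the median gene in all 4 libraries, with a median log2 ratio of 1.76 against 0.02 for all genes, while 1, Odc1 of polyamine synthesis, lay below it in all. Among them the nucleolar genes Npm1 and Ncl reached 2328 to 2968 and 1508 to 2479 CPM against 129 to 241 and 111 to 161 CPM. Proteasome subunits lay above it in 28 of 35 cases (median 1.16), glycolysis genes in 8 of 11 (1.15) and oxidative phosphorylation genes in 45 of 75 (0.56), and on CPM 35 of 35, 11 of 11 and 74 of 75 were higher in all libraries, as were 4252 of all 5140 genes. Of the inducible proteasome subunits, Psmb8 was below the median gene in all libraries, though at 182 to 258 against 96.5 to 126 CPM it was higher on CPM.

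The secretory program was low relative to the median gene, but not on CPM over all UMIs. Of 52 genes of the secretory pathway and the unfolded protein response, 46 lay below the median gene in all 4 libraries (median −1.52), and 13 were at least 4-fold lower on that scale. On CPM, 19 were higher and 20 lower in all libraries (median −0.10, against 1.44 for all genes). The chaperones Hsp90b1 and Hspa5 had overlapping CPM in the 2 classes, at 1844 to 3206 against 2051 to 3069 and 869 to 1185 against 674 to 1334. Plasma cell transcription factors lay below the median gene in 9 of 12 cases (median −1.61, and −0.30 on CPM), with Myc as the 1 exception above it in all libraries, and MHC class II genes in 4 of 4 (−2.74, and −1.25 on CPM). The plasma cell factors Xbp1 and Prdm1 were among the 5 transcripts that chose the comparator. Of 10 measured target antigens of antibodies and CAR T cells, 8 lay below in all libraries (−1.77, and −0.40 on CPM), and Cd47, at 305 to 535 against 151 to 214 CPM, was among the other 2. Of 9 measured PRC2 genes 5 lay above the median gene in all libraries, among them Ezh2, the catalytic subunit, at 92.9 to 161 against 8.43 to 24.03 CPM. Cdkn1a, the p53-induced cell cycle inhibitor p21, was also high, at 60.5 to 128 against 1.87 to 3.20 CPM.

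Genes of chromosome 14 were low relative to the median gene along most of its length. With immunoglobulin genes left out, the median log2 ratio of its 195 measured genes to the other plasma cells, relative to the median gene, was −1.10, −0.94, −0.86 and −0.96 in vehicle replicates 1 and 2 and PM replicates 1 and 2. Of these genes, 123 (63.1%) lay below the median gene in all 4 libraries, against 33.5% of all 6260 genes. Set against all other marrow cells, 152 of 203 (74.9%) did so, against 40.9% of all, with medians from −0.93 to −0.83. In windows of 20 Mb the medians against the other plasma cells ran from −1.59 to −0.46, except between 80 and 100 Mb, where 3 genes gave 0.63 to 0.76. Rb1, the retinoblastoma tumor suppressor at chr14:73183673-73325822 on GRCm38, was at 1.55, 1.62, 3.33 and 1.75 CPM in the clone and 18.2 to 26.5 CPM in the other plasma cells, a log2 ratio of −4.76 to −3.58 to the median gene. Tpt1, a highly expressed gene of growth control on the same chromosome, had a ratio of −1.51 to −0.77. Both were picked after their values were seen. Chromosome 5 was the next lowest, at −0.30 to −0.23, and unevenly so, since its medians ran from −1.21 to −0.86 between 140 and 160 Mb but from 0.57 to 0.76 between 60 and 80 Mb. The ratios are of RNA, and copy number was not measured.

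**Figure D3:**
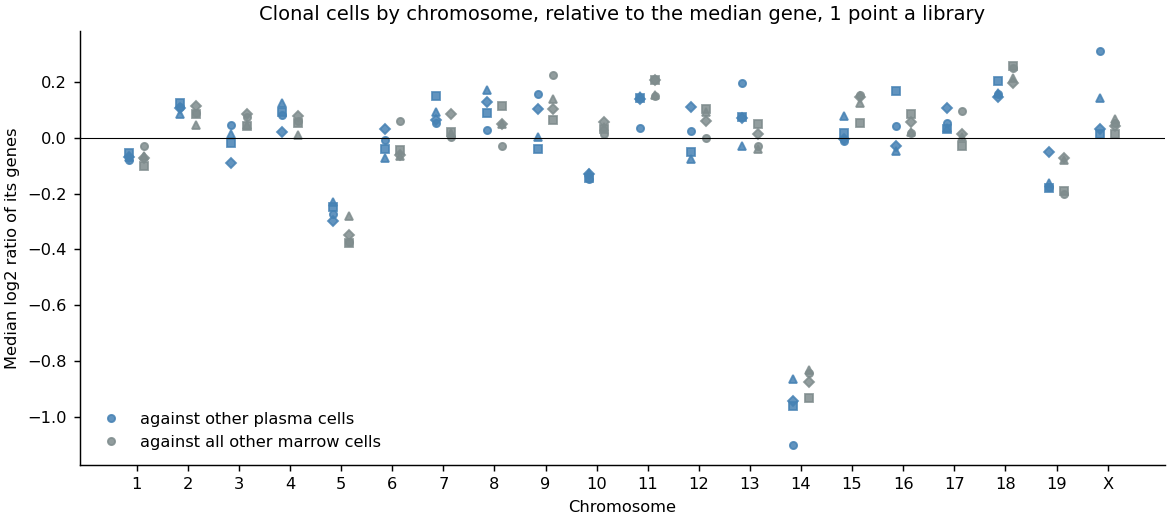
Median log2 ratio of the genes of each chromosome (vertical axis) in clonal cells against other plasma cells (blue) and against all other marrow cells (grey), relative to the median gene, 1 point per library. Chromosome 14 lies between −1.10 and −0.83 in all 4 libraries on both references.

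Transcripts of the dividing cell were abundant in most clonal cells of all 4 mice. Each cell was thinned to 5000 UMIs, which kept 165 of 166 clonal and 208 of 228 other plasma cells, and a cell was called G2M-high at 10 or more UMIs of 54 G2M transcripts. G2M-high cells made up 71.4%, 88.9%, 67.8% and 88.9% of the clonal cells in vehicle replicates 1 and 2 and PM replicates 1 and 2. This came to 124 of 165 (75.2%), against 15 of 208 (7.21%) of the other plasma cells. Most of those 15 cells had more than 1% neutrophil UMIs, up to 30.4% in PM replicate 1. S-phase-high cells, by the same number of UMIs of 43 S-phase transcripts, made up 66.7%, 66.7%, 62.2% and 77.8% in the same order, or 66.1% against 1.92%. At least 1 of the limits was met by 86.1% of the clonal cells and 7.21% of the others. Mki67, the proliferation antigen Ki-67, was detected in 60.6% of thinned clonal cells and 12.02% of the others.

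The G2M share needs its background. Neutrophils with a Cxcr2 UMI, a marker of the mature stage, numbered 17495, of which 9588 were shallower than 5000 UMIs and were left out. The other 7907 met the G2M limit in 94.6% of cases, in large part through Hmgb2 and Lbr. Without these 2 genes the share was 64.8% in the clone, 4.81% in the other plasma cells and 18.1% in the neutrophils, and the S-phase share in the neutrophils was 9.21%. The Mki67 share in them was 20.4%, above that of the other plasma cells. In Cxcr2 neutrophils of all depths, before thinning, it was 10.5% to 14.3% per library. This background was thus not free of transcripts of dividing cells. The number of clonal cells with 8 to 12 G2M UMIs, near the limit, was 43, and the unthinned Mki67 share was 90.1% to 96.3% per library. In the sums, 26 of 31 measured S-phase genes and 29 of 38 G2M genes lay above the median gene in all 4 libraries, with medians of 1.65 and 1.31. Pcna, the sliding clamp of replication, was at 349 to 555 against 37.5 to 55.6 CPM, and Top2a, a topoisomerase of dividing cells, at 283 to 419 against 20.6 to 70.9 CPM.

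**Figure D4:**
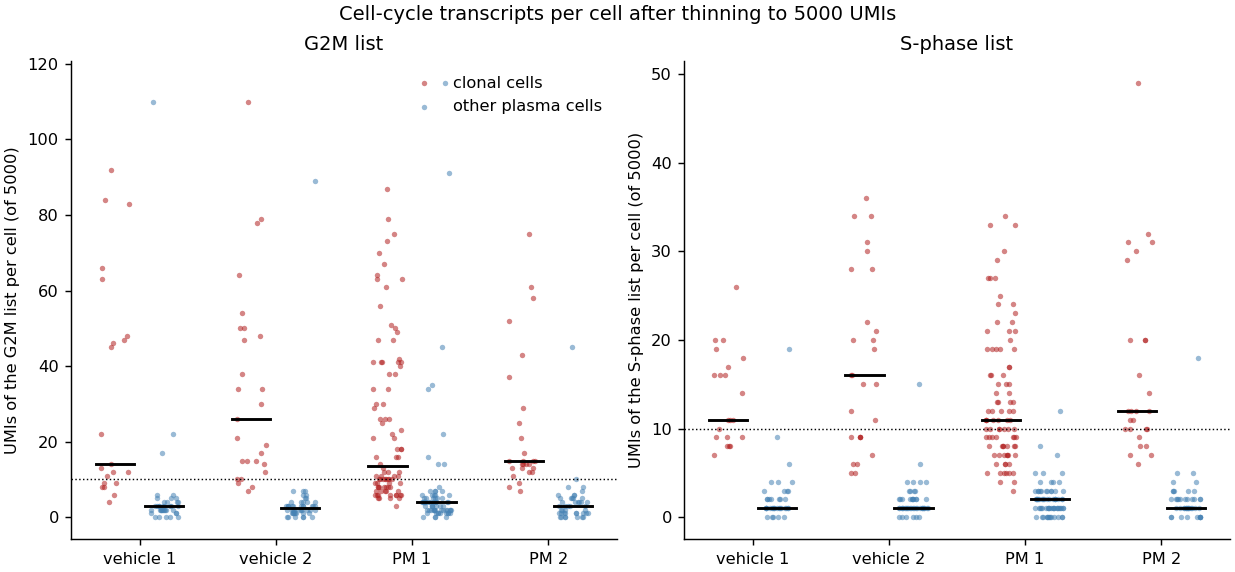
UMIs of the G2M list (left) and the S-phase list (right) per cell after thinning to 5000 UMIs, by library, in clonal cells (red) and other plasma cells (blue); black bars are medians and the dotted line marks 10 UMIs. The clonal G2M medians are 14, 26, 13.5 and 15 and those of the other plasma cells 2.5 to 4.

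Cells with 20 or more G2M UMIs had more RNA than the remaining clonal cells before thinning, by a log2 ratio of 0.40 to 0.59 within the libraries. In thinned cells the same ratio was −0.25 to −0.17 for Igkc, lower in each library. For Jchain it was −2.46 to −0.30, again lower in each library. No test was made across cells, which are not replicates. Of 532 genes with a mean of at least 1 UMI in thinned clonal cells of each library, 23 had a variance more than 2 times the mean in all 4 libraries and 124 in at least 1. Igkc, Ighg2b, Mt1 and Mt2 were among the 23, though the selection itself bounds Ighg2b from below. Slpi, a secreted protease inhibitor, was also uneven, with ratios of 2.20 to 12.9, and the clone was lower in it than the other plasma cells, at 841 to 2395 against 3966 to 16078 CPM.

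PM was given to ask how the marrow responds to class I and IIb deacetylase inhibition, and the clonal share gave no clear change at 24 h. Of all cells it made up 0.227% (95% Clopper-Pearson interval 0.140 to 0.346) and 0.345% (0.227 to 0.502) with vehicle, and 0.680% (0.548 to 0.834) and 0.291% (0.192 to 0.424) with PM. PM replicate 1 was above both vehicle mice, whereas PM replicate 2 lay between them (exact two-sided permutation test, p = 0.667, n = 2 and 2, where the smallest possible p is 0.333). The log2 ratio of the means was 0.76, and 0.03 without PM replicate 1. Per 100 plasma cells of either class, 34.4 and 33.3 were clonal with vehicle and 52.3 and 34.6 with PM (exact permutation p = 0.333). Nor did the G2M-high share part the groups, with a PM minus vehicle difference of −1.83 percentage points (exact permutation p = 1). With the limit at 20 UMIs they were 47.6% and 55.6% in the vehicle mice against 42.2% and 33.3% under PM, lower in all 4 pairs of mice (exact permutation p = 0.333).

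PM against vehicle on the sums per library raised 13 of 8366 tested genes (0.155%) and lowered 0 (0%), by edgeR's quasi-likelihood test with Benjamini-Hochberg adjustment at p under 0.05 and a log2 change over 0.5. Of the 13, Bbs7, Endou and Rnase2b were at 17.1 CPM or more in both vehicle libraries. Mt3, Clec12a, Itgam, Ccl6, Rnase6, H2-DMa, Btg1, Ccl9, Lmcd1 and Ly6a were at 9.31 CPM or less there. They needed the PM libraries to pass the filter on low counts. The filter thus favored a rise in these genes, which limits what their p-values can show. At an unadjusted p under 0.05 there were 405 higher and 278 lower genes, and DESeq2 called 10 higher and 0 lower, with 5 of the 13 among them. In thinned cells, where Bbs7 was the 1 of the 13 that could be tested, none of the 13 was called. Without PM replicate 1 the counts were 44 higher and 28 lower, with 10 of the 13 among them, and without cells over 1% neutrophil UMIs they were 16 and 2, with 7 of the 13. In the 228 other plasma cells the same test called 0 of 6177 genes higher (0%) and 0 lower (0%), with 183 and 172 at an unadjusted p under 0.05, and DESeq2 called 3 and 4.

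The largest named rise was in Ly6a, the glycosyl-anchored surface protein Sca-1, which interferon induces in lymphocytes. Each vehicle library held 2 Ly6a UMIs, so the gene passed the filter on low counts through the PM libraries. Its level was 3.102 and 1.62 CPM under vehicle against 52.1 and 30.6 CPM under PM, with no overlap, a log2 change of 4.27 ± 0.52 (approximate SE, edgeR, adjusted p = 0.00064). Even so it stayed far under the 961 to 2225 CPM of the other plasma cells. Among thinned clonal cells 0%, 0%, 20% and 18.5% held a UMI, against 2.07% of Cxcr2 neutrophils at the same depth. In cells that a neutrophil transcript list marks, its level was 3.26 and 1.39 CPM with vehicle and 18.5 and 9.55 CPM with PM.

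Mt3, the third metallothionein shown above, was at 9.31 and 5.66 CPM under vehicle against 42.7 and 50.7 CPM under PM. The groups did not overlap, and the log2 change was 2.67 ± 0.36 (edgeR, adjusted p = 0.00090). Its neighbors Mt1 and Mt2 were not called, at 0.01 ± 0.24 and −0.02 ± 0.23, with levels that overlapped between the groups. Rnase2b, a ribonuclease of the family of eosinophil granule proteins, was at 17.1 and 23.5 CPM with vehicle and 60.8 and 103 CPM with PM (log2 1.87 ± 0.30, edgeR adjusted p = 0.0054). Ly6a, Mt3 and Rnase2b were called in 13 of the 13 alternative settings that tested them, DESeq2 among them. Mt3 and Rnase2b had a UMI in 0.0126% and 0.0885% of thinned Cxcr2 neutrophils.

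Bbs7, a subunit of the BBSome that sorts cargo to cilia, rose with PM from 20.2 and 31.6 to 76.0 and 93.5 CPM (log2 1.59 ± 0.27, edgeR adjusted p = 0.0076). Endou, an endoribonuclease, rose from 38.8 and 18.6 to 72.6 and 89.975 CPM (1.56 ± 0.29, edgeR adjusted p = 0.020). For both, each PM mouse lay above each vehicle mouse. Endou was not called by DESeq2 (log2 1.53) or without vehicle replicate 2 (1.05). In the other plasma cells Bbs7 had at most 1.92 CPM and Endou 16.9 to 25.5 CPM.

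The other 3 named rises were in genes that neutrophils express. Clec12a, a myeloid lectin receptor, was at 6.20 and 6.47 CPM with vehicle and 38.4 and 31.4 CPM with PM (log2 2.44 ± 0.39, edgeR adjusted p = 0.0054). Itgam, the integrin CD11b, was at 6.20 and 8.90 against 43.3 and 23.6 CPM (2.13 ± 0.42, edgeR adjusted p = 0.040). The chemokine Ccl6 was at 1.55 and 5.66 against 39.3 and 82.1 CPM (3.70 ± 0.50, edgeR adjusted p = 0.0054). No vehicle value reached a PM value in these genes. In PM replicate 2, however, 76 of 94 Ccl6 UMIs and 17 of 27 Itgam UMIs came from 1 cell each, and without the top cell the levels there were 16.2 and 9.01 CPM, the latter beside 8.90 CPM in vehicle replicate 2. After thinning, a Ccl6 UMI was held by 0% and 14.8% of the clonal cells with vehicle and by 10% and 7.41% with PM.

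Clec12a, Itgam and Ccl6 had a UMI in 80.03%, 98.3% and 29.4% of thinned Cxcr2 neutrophils. With cells over 1% neutrophil UMIs left out, their log2 changes were 1.96, 2.03 and 3.105, and none of the 3 was called. In PM replicate 1, leaving out these 14 cells took Clec12a from 38.4 to 18.7 CPM, Itgam from 43.3 to 16.4 CPM and Ccl6 from 39.3 to 15.6 CPM. In PM replicate 2 the same step left 28.5, 23.2 and 74.9 CPM, against 31.4, 23.6 and 82.1 CPM before. The part of neutrophil RNA was not tested. Itgam kept its call in 8 of 13 alternative settings, and lost it with DESeq2 (2.10), without PM replicate 1 (1.46) and on leaving out either vehicle mouse (1.93 and 2.52). Clec12a was also not called by DESeq2 (2.43).

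Below the 20 CPM that the naming rule asks for, Rnase6, H2-DMa, Btg1, Ccl9 and Lmcd1 were also called higher. Rnase6 was at 0 and 3.24 CPM with vehicle and 28.4 and 23.6 CPM with PM. H2-DMa lost its call without PM replicate 1 (log2 2.29, against 2.95 with it) and without vehicle replicate 2 (2.20). Btg1, at a log2 change of 2.22, was not called without vehicle replicate 2 (1.99) or without cells over 1% neutrophil UMIs (1.95). DESeq2 called none of these 5. Both vehicle libraries were at 0 for Ccl9 and Lmcd1, which lost their calls without vehicle replicate 2. In PM replicate 2, all 19 Ccl9 UMIs and 10 of 11 Lmcd1 UMIs came from 1 cell each, as did 29 of 44 Lmcd1 UMIs in PM replicate 1, and neither passed the filter on low counts once the cells over 1% neutrophil UMIs were left out.

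**Figure D5:**
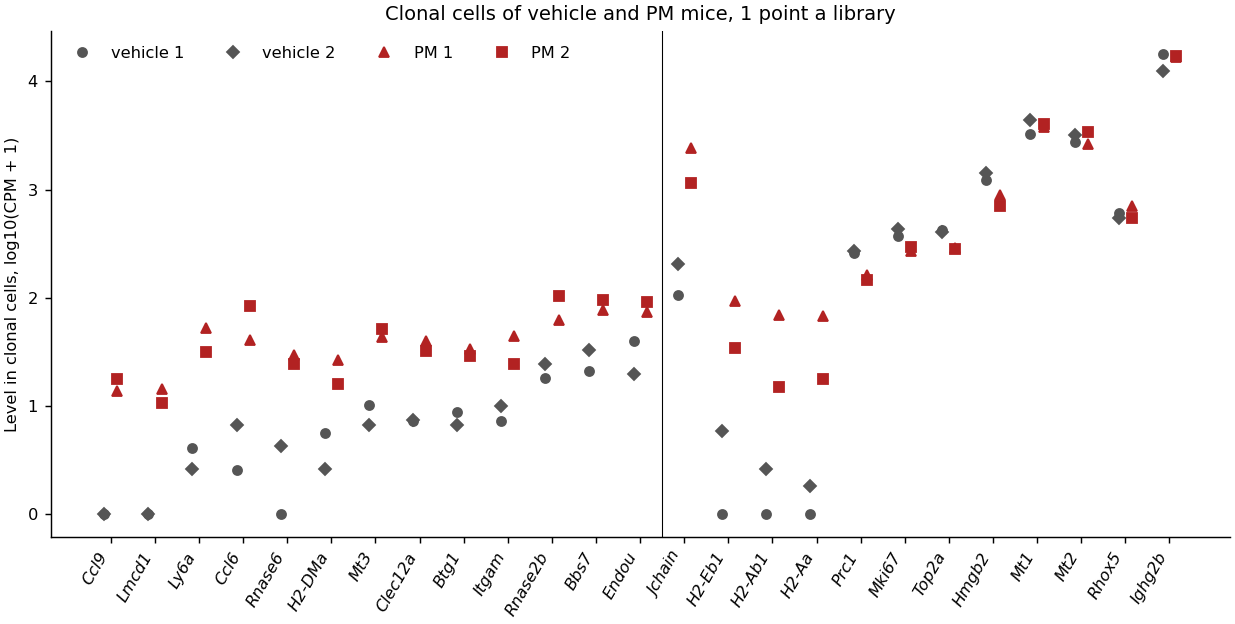
Level in clonal cells as log10(CPM + 1) for each gene, 1 point per library, vehicle in grey and PM in red. Left of the line are the 13 genes called higher, in which both PM points lie above both vehicle points, and right of it Jchain, MHC class II, cell cycle and clone marker genes, which were not called.

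MHC class II genes, which present peptides to helper T cells, had higher values with PM, but 1 of 6 tested was called (13 of all 8366). H2-Eb1, H2-Aa, H2-Ab1 and H2-DMa had at most 6 UMIs in either vehicle library and passed the filter on low counts through the PM libraries, so that their common direction is no support of its own. Cd74, the invariant chain, was abundant in all libraries, at 532 and 560.0 CPM with vehicle and 869 and 664 CPM with PM (log2 0.47, edgeR adjusted p = 0.60). The called gene was H2-DMa, with the limits given above. H2-Eb1 was at 0 and 4.86 CPM with vehicle and 93.2 and 33.2 CPM with PM, and a UMI was found in 0 and 4 vehicle cells and in 59 and 14 PM cells. H2-Aa and H2-Ab1 were at most 1.62 CPM with vehicle and at 67.2 and 16.6, and 67.8 and 13.98 CPM, with PM. In PM replicate 1, 24 of 91 cells had a H2-Aa UMI, and single cells held 90 of 222 H2-Aa UMIs and 85 of 224 H2-Ab1 UMIs. The edgeR adjusted p of H2-Eb1, H2-Aa and H2-Ab1 was 0.62, 0.65 and 0.73, and none of the 3 was called. Of the 6 genes, 4 were called with the replicate number as a block (60 of 8366) and 1 without cells over 1% neutrophil UMIs (16 of 8265). On leaving out 1 mouse, the median log2 change of the list ran from 2.20 (without vehicle replicate 2) to 4.06 (without PM replicate 2). With all mice it was 3.66. In cells that the neutrophil list marks, H2-Eb1 was at 5.80, 5.72, 22.4 and 13.5 CPM in vehicle replicates 1 and 2 and PM replicates 1 and 2. The 8 B cell markers summed to 192 and 168 CPM in the clonal cells of the vehicle mice and 206 and 234 CPM in those of the PM mice, most of it Cd79b, and the monocyte sums are given above. What part RNA of other antigen-presenting cells had in these values was not tested. The gene for the regulator Ciita had UMIs in 8 clonal cells, all of PM replicate 1.

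Jchain followed the same pattern at a higher level. The levels given above, 105 and 205 CPM under vehicle against 2441 and 1157 CPM under PM, did not overlap, a log2 change of 3.49 ± 0.64 that edgeR did not call (adjusted p = 0.34). DESeq2 did call it, as did edgeR without either PM replicate, without a filter on low counts and in thinned cells. Single cells held 42 of 68 Jchain UMIs in vehicle replicate 1 and 109 of 253 in vehicle replicate 2. Without the top cell of each library, the levels were 41.9 and 122 CPM under vehicle and 2403 and 1083 CPM under PM. The share of thinned clonal cells with a Jchain UMI was 28.6% and 18.5% under vehicle, 84.4% and 70.4% under PM and 7.32% among Cxcr2 neutrophils. Lsp1, a cytoskeletal protein of leukocytes, was at 4.65 and 4.86 against 56.6 and 24.5 CPM (3.15 ± 0.55, edgeR adjusted p = 0.059), but 89.4% of Cxcr2 neutrophils held it. Without cells over 1% neutrophil UMIs the Lsp1 levels with PM were 35.4 and 22.3 CPM.

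Most G2M genes had lower values with PM, but 0 of 52 tested passed the test (edgeR). Of the 52, 51 lay below 0, 38 were lower in all 4 pairs and 26 were lower at an unadjusted p under 0.05. Their median log2 change was −0.54. Among all 8366 genes, 4182 lay below 0, 1285 were lower in all pairs and 278 were lower at an unadjusted p under 0.05. The 52 genes come from the same 4 libraries and are not independent, so their common direction is no test of its own. Mki67 was at 372 and 433 CPM with vehicle and 270 and 296 CPM with PM (−0.55 ± 0.20, edgeR adjusted p = 0.41). Prc1, which bundles the spindle midzone, was at 257.5 and 267 against 160.4 and 145 CPM (−0.80 ± 0.19, edgeR adjusted p = 0.10). The chromatin protein Hmgb2 was at 1230.0 and 1415 against 895 and 705 CPM (−0.75 ± 0.23, edgeR adjusted p = 0.25). In each of them both PM mice lay below both vehicle mice. With the replicate number as a block, 51 of 52 lay below 0 and 4 were called lower (15 of all 8366). In G2M-low cells alone, a group that the list itself defines, 4 genes lay above and 7 below 0 (median −0.09). Without PM replicate 1, 49 of 52 lay below 0 (median −0.69), and without PM replicate 2 it was 50 (−0.44). Of 42 tested S-phase genes, 19 lay above and 23 below 0 (median −0.05), and their difference from the G2M list was not tested. Leaving out 1 mouse moved the S-phase median to between −0.16 (without vehicle replicate 1) and 0.19 (without vehicle replicate 2). Sums cannot tell fewer mitotic cells from fewer mitotic transcripts per cell.

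In the main test, no gene of the proteasome, type I interferon response or secretory lists was called. Of 35 proteasome genes 30 lay above 0 and 21 were higher in all pairs (median 0.20), against 4184 and 1704 of all 8366 genes. The proteasome median was 0.08 without vehicle replicate 1 and 0.32 without vehicle replicate 2. Likewise 12 of 14 tested type I interferon response genes lay above 0 and 8 did so in all pairs (0.40), and 40 of 51 secretory genes lay below 0 (−0.19). Without cells over 1% neutrophil UMIs, 9 of 13 interferon response genes lay above 0 (0.25) and 1 was called (16 higher of all 8265). With the replicate number as a block, 2 of 14 were called (60 of 8366). The interferon median was 0.30 without PM replicate 1 and 0.64 without PM replicate 2. Neutrophil markers lay above 0 in 9 of 9 cases (median 1.65), and without PM replicate 1 in 2 of 9 (−0.81). The markers Sdc1 and Epcam, which the selection of the clonal cells did not use, had log2 changes of 0.19 ± 0.21 and −0.20 ± 0.22, neither called.

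None of the tested genes that are always looked up because the study follows them was called in the clone at 24 h. The log2 change was 0.06 ± 0.24 for Myc, −0.23 ± 0.22 for Ezh2, −0.02 ± 0.25 for Irf4, 0.03 ± 0.20 for Ikzf1 and 1.57 ± 0.64 for Ikzf3, a lymphoid transcription factor at 1.55 and 4.05 CPM with vehicle and 9.69 and 9.61 CPM with PM. Leaving out 1 PM mouse moved Myc to 0.40 or −0.33 and Ezh2 to 0.09 or −0.58. Tap1, the peptide transporter of MHC class I, was at 0.21 ± 0.25. Among the deacetylases that PM targets, Hdac1 was at 0.27 ± 0.24, Hdac2 at −0.19 ± 0.20, Hdac3 at −0.36 ± 0.24, Hdac6 at −0.25 ± 0.37 and Hdac10 at 0.48 ± 0.52, none called. Cdk6, Cxcl10, Cxcl12, Isg15, Tlr3 and Hdac8 had too few UMIs to be tested, and Ccl7 had none.

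The PM effect itself was compared between the clone and the other plasma cells in 1 edgeR fit over 8929 genes with the mouse as a block. It was larger in the clone for 9 genes (0.101%) and smaller for 1 (0.0112%). Jchain had the lowest adjusted p, with a difference of 3.78 on the log2 scale (edgeR, adjusted p = 0.00029), while the other plasma cells held 43864 and 67241 CPM with vehicle and 52724 and 47851 CPM with PM. H2-Eb1 differed by 3.60 (edgeR, adjusted p = 0.044), against 18.3 and 22.5 and then 53.7 and 25.9 CPM in the other plasma cells. Rnase6, at 96.8 to 103 CPM in the other plasma cells of all mice, differed by 3.84 (edgeR, adjusted p = 0.018). Prc1 went the other way, by −2.99 (edgeR, adjusted p = 0.023), on 5.09 and 3.75 CPM with vehicle and 20.8 and 25.9 CPM with PM in the other plasma cells. Jchain and Rnase6 were called in all 12 alternative settings, whereas 8 of the 10 genes were lost without vehicle replicate 2. Without cells over 1% neutrophil UMIs, 8 of the 10 were among the calls, Ighv1-54 was not called and Wfdc17 was not tested. Ly6a, called in the clone, differed by 3.64 without passing (edgeR, adjusted p = 0.067).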

How the data were processed

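Bone marrow of 4 mice, 2 given vehicle and 2 given PM, was profiled with droplet 3′ single-cell RNA sequencing. The authors deposited raw UMI counts per gene and cell, made with Cell Ranger 6.0.1 per the file headers. STAR and GRCm39 stand in the submitters' processing notes, while the study's methods name GRCm38, and 32235 of the 32285 gene identifiers match the GENCODE M21 annotation of GRCm38, from which coordinates were taken. No normalization had been applied.

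UMIs of clonal and of other plasma cells were summed per library. Sums were tested with edgeR 4.0.16 (quasi-likelihood, TMM, filterByExpr, robust fit) in R 4.3.3 with Benjamini-Hochberg adjustment, and genes were called at an adjusted p under 0.05 and a log2 change over 0.5. The edgeR test gives no standard error. The values after ± are the absolute log2 change divided by the square root of its F statistic, and the p-values cannot be read from them. DESeq2 1.42.0 was an alternative. The tests were checked on simulated data, with large changes in well-covered genes. That check does not reach genes with few UMIs, genes whose UMIs come mostly from single cells, or a deviating library. Shares were compared by exact two-sided permutation tests (scipy 1.17.1), and Clopper-Pearson intervals cover counting error only. With 1 library per mouse, the replicates are 2 mice per group. The gene tests draw each gene's spread towards a trend over all genes, so their p-values do not rest on those mice alone. No doublet caller was run, so cells with other types' transcripts stayed in. Single-cell depth was equalized by drawing 5000 UMIs per cell.

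Genes named for PM passed the test with a mean of 20 CPM or more and 1 direction in all 4 vehicle-PM pairs, with antigen receptor, mitochondrial and hemoglobin genes left out. For the contrast with other plasma cells, the 20 higher and 15 lower genes had 100 CPM or more in every library of the higher class and ranked by the smallest within-library ratio at a pseudocount of 1 CPM. Of each list, the 4 genes highest in the clone and any called could be named, and genes the study follows were always looked up. The cells, lists and genes were chosen with earlier results of these data known. Replicate numbers were not used as pairs. Of the genes always looked up, Mx1 was not analysed here.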

Additional observations from a re-analysis of the deposited data

Results flagged for a closer look

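The PM effect differed between the clone and the other plasma cells for 10 genes, by the interaction test (edgeR, Benjamini-Hochberg adjusted p under 0.05), which is what brought them here. The values are log2 differences of the PM effect, clone minus other plasma cells.

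Jchain differed by 3.7842, Rnase6 by 3.8416, H2-Eb1 by 3.6047 and Prc1 by −2.9945, with levels as given above. For Lsp1 the difference was 2.8683 and for Btg1 2.5169. Btg1 stood at 7.76 and 5.66 CPM with vehicle and 32.7 and 27.95 CPM with PM in the clone, and at 71.3, 103, 103 and 64.2 CPM in the other plasma cells of vehicle replicates 1 and 2 and PM replicates 1 and 2. Wfdc17 differed by 3.7572, and it was not called without PM replicate 1 or tested without cells over 1% neutrophil UMIs. Ccl4, a chemokine gene, differed by 6.9616, and its 63 UMIs in the clone of PM replicate 2 came from 1 cell, as did its 4 UMIs in PM replicate 1. It was not called by DESeq2 or without PM replicate 2. Ighv1-54, the heavy-chain V gene of the clone, differed by 4.6735, with 72.9, 64.7, 62.0 and 59.4 CPM in the clone and 38.7, 51.5, 0 and 3.83 CPM in the other plasma cells in the same order of libraries. Without cells over 1% neutrophil UMIs the difference was 3.77 and was not called. Egr1, an immediate early gene, differed by 4.5969, on at most 19.2 CPM in the clone, and it was not called by DESeq2 or on leaving out either vehicle mouse. Without vehicle replicate 2, Jchain and Rnase6 alone of the 10 were called.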

How the results depend on the processing

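The test over all genes was the part most open to the processing, with 2 mice per group and 166 cells. PM against vehicle called 13 genes higher and 0 lower in the clone. Without a filter on low counts this became 124 and 26, with library totals in place of TMM 57 and 8, in cells thinned to 5000 UMIs 8 and 1, in G2M-low cells alone 3 higher, and without cells over 1% neutrophil UMIs 2 lower. Leaving out 1 mouse gave 12 to 205 higher and 7 to 28 lower, the 205 without PM replicate 2. The lone mouse of a group is then assumed to vary like the other group.

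For the difference between the classes, 9 and 1, the counts were 57 and 16 without the filter, 14 and 9 without TMM, 18 and 14 without cells over 1% neutrophil UMIs, 14 and 3 with stricter cell limits, and 3 to 57 and 2 to 15 on leaving out 1 mouse. DESeq2 called 3 lower there, and Rhox5 of at least 5 or Ighg2b of at least 100 gave 2. In the other plasma cells DESeq2 called 3 higher and 4 lower. The contrast of the clone with other plasma cells, 780 and 73 genes, came to 166 and 231 without immunoglobulin genes, 392 and 45 at a pseudocount of 10 CPM, and 89 and 201 relative to the median gene. The last scale, the G2M list without Hmgb2 and Lbr and the test in the other plasma cells alone were added after the data were seen.

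With the replicate number as a block the PM test called 60 higher and 15 lower, the 13 among them. The numbers do not pair the mice (correlation of deviations −0.067 over 8366 genes). Most values of called genes under the alternatives kept direction and call, and none reversed. The clonal share and the G2M-high share moved by less than the spread between mice under each alternative. That spread was wide and included PM replicate 1, so it was a loose limit. Leaving out PM replicate 1 took away almost all of the difference in the clonal share. With the limit at 20 UMIs, the G2M-high difference went from −1.83 to −13.8 percentage points, within a PM standard deviation of 14.9. Genes under the filter on low counts could not be tested, 8366 passed it, and 91 of the 166 cells came from 1 mouse.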
